A study of Mus musculus with 6 samples.

Results

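The cytosolic ribosomal protein genes encode the proteins of the 2 subunits of the ribosome that works in the cytosol. They were taken by symbol, as Rpl or Rps with a number and at most 1 further letter out of a, x, l and y, together with Rplp0, Rplp1, Rplp2 and Rpsa. This gave 81 of the 19943 genes listed, 49 of the large (60S) subunit and 32 of the small (40S) subunit. Of these, 76 are the standard genes and 5 carry a symbol that ends in l (Rpl3l, Rpl32l, Rpl39l, Rps4l and Rps27l). Between 80 and 81 of the 81 were listed in each library, and a gene missing from a library was set to 0. The rule leaves out some proteins of the cytosolic ribosome with other names, such as Fau, Rps3a1 and Rack1, which are described separately.

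RNA was sequenced from the medial prefrontal cortex, a frontal area of the cerebral cortex, of C57BL/6 mice. There were 3 libraries of control mice and 3 of mice isolated from other mice for 3 weeks after weaning, called here control 1 to 3 and isolated 1 to 3. No genetic change is named for either group. The labels give all mice an age of 6 weeks, while the design text of the series gives 7 weeks. Whether each library came from its own mouse is not stated, so the tests measure the spread between libraries, which may be technical. Depth was 18226448 to 18606573 expected counts per library, where an expected count is the estimated number of reads of a gene, reads with several matches being shared out. Markers of cortical projection neurons (Slc17a7 and others) summed to between 2114 and 2720 CPM, counts scaled to a common depth, in each library. Markers of striatal projection neurons (Drd1, Drd2 and 13 others) summed to 3907 CPM in control 2 and 2822 CPM in isolated 3, against 405 to 1259 CPM in the other 4 libraries. The members' summed share and the differences of the members described by their p are also given without these 2 libraries.

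A ribosome holds 1 copy of nearly every one of its proteins, and cells make these proteins in matched amounts, with surplus copies degraded. The mRNAs of ribosomal proteins share a 5' terminal oligopyrimidine (TOP) tract, a C at the start followed by a run of C and T, through which the kinase mTOR and the RNA-binding protein LARP1 control their translation. In neurons they are also found in dendrites and axons, where local translation serves synapses. RNA levels as measured here do not show how much of each mRNA is translated.

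To show the shared tract, the windows of 30 bases around annotated start sites were read from RefSeq for GRCm38.p6, which held 60 of the 81 genes with 72 starts. Each window has the 15 bases before the annotated start and the 15 bases from it on, 5' to 3' on the gene's strand. Capitals mark the unbroken run of C and T through the start. Shown are 6 genes whose annotated start fits the TOP pattern, chosen for the clear tract.
Rpl35 (chr2:39005117-39005146, minus strand): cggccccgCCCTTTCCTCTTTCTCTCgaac
Rps27 (chr3:90213634-90213663, minus strand): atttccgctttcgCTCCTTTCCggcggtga
Rps6 (chr4:86857353-86857382, minus strand): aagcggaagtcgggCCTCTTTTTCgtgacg
Rplp2 (chr7:141447636-141447665, plus strand): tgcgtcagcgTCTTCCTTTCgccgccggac
Rpl28 (chr7:4792950-4792979, plus strand): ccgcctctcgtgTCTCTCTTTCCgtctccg
Rpl15 (chr14:18270972-18271001, minus strand): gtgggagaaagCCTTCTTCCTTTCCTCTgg
A C at the annotated start with at least 4 further C or T was found at 14 of the 72 starts (19.4%), against 823 of 32851 starts of all genes in the table (2.51%). A run of at least 8 C or T within 5 bases of the start was found at 33.3% of the members' starts and at 9.38% of all starts. Annotated starts can lie some bases away from the ones cells use, and a missing match says only that the letters are not at this position. As a contrast, the windows of Rpl41 and Rps15, both among the most abundant members, hold no such tract at the annotated start.
Rpl41 (chr10:128549154-128549183, minus strand): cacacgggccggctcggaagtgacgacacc
Rps15 (chr10:80292416-80292445, plus strand): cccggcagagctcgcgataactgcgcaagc
Over the 300 bases from 250 before to 50 after the start, on both strands, the ETS core CCGGAAG was found at 36.1% of the members' starts and 8.86% of all starts. The YY1 core AAGATGG, which can share its AAG with the end of the ETS core, was found at 15.3% and 6.34%. TATAAA was found at 9.72% and 13.6%. These are matches of letters, not measured binding.

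Levels are compared between genes per length, as the deposited FPKM (a read count corrected for gene length and depth), averaged over the 6 libraries. The 76 standard genes had a median of 146 FPKM, and the medians of the large and small subunit genes were 147 and 146 FPKM. Of the 76 genes, 67 lay within 2-fold of the median. The highest of the large subunit were Rplp1 (394 FPKM), Rpl41 (320 FPKM), Rpl23a (307 FPKM), Rpl3 (286 FPKM) and Rpl9 (260 FPKM). Rplp1, an acidic protein of the stalk that recruits elongation factors, ranked first in all 6 libraries, at 354 to 422 FPKM. High in the small subunit were Rps15 (350 FPKM), Rps2 (238 FPKM), Rps23 (237 FPKM) and Rps27 (234 FPKM). The order of the 76 genes was nearly the same in every library, with a rank correlation of FPKM between 0.988 and 0.995 over the 15 pairs of libraries. These values are a description, since every library shares the same gene lengths and read chemistry.

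The 3 lowest FPKM among standard genes were those of Rps15a, Rps20 and Rpl22, which have long annotated transcripts. The 5 lowest of each subunit follow. In the small subunit they were Rps15a (17.5 FPKM), Rps20 (18.7 FPKM), Rps3 (77.0 FPKM), Rps27a (93.6 FPKM) and Rps19 (105 FPKM). In the large subunit they were Rpl22 (32.2 FPKM), Rpl27 (71.3 FPKM), Rpl36 (73.2 FPKM), Rpl37 (74.3 FPKM) and Rpl39 (74.9 FPKM). The deposited length of Rps15a was 5158 bases, that of Rps20 was 3446 bases and that of Rpl22 was 2178 bases, against a median of 720 bases over the tested members. When the same counts were divided by the length of the coding sequence in GENCODE, Rps15a lay at 233 CPM per kilobase, beside a median of 233 CPM per kilobase over the 76 genes. Rps20 and Rpl22 then lay at 181 and 182 CPM per kilobase. On this basis 72 of the 76 genes lay within 2-fold of the median, and the SD of the log2 levels was 0.60 in place of 0.80 for FPKM. The coefficient of variation of the levels without logs went the other way, at 77.0% in place of 45.6% for FPKM. The coding basis set Rpl41 highest, at 1824 CPM per kilobase with a coding sequence of 75 bases in a deposited length of 459 bases. The lowest on this basis was Rpl36, at 91.5 CPM per kilobase. The fold between the highest and the lowest gene was 22.5 by FPKM and 19.9 per coding kilobase.

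**Figure D1:**
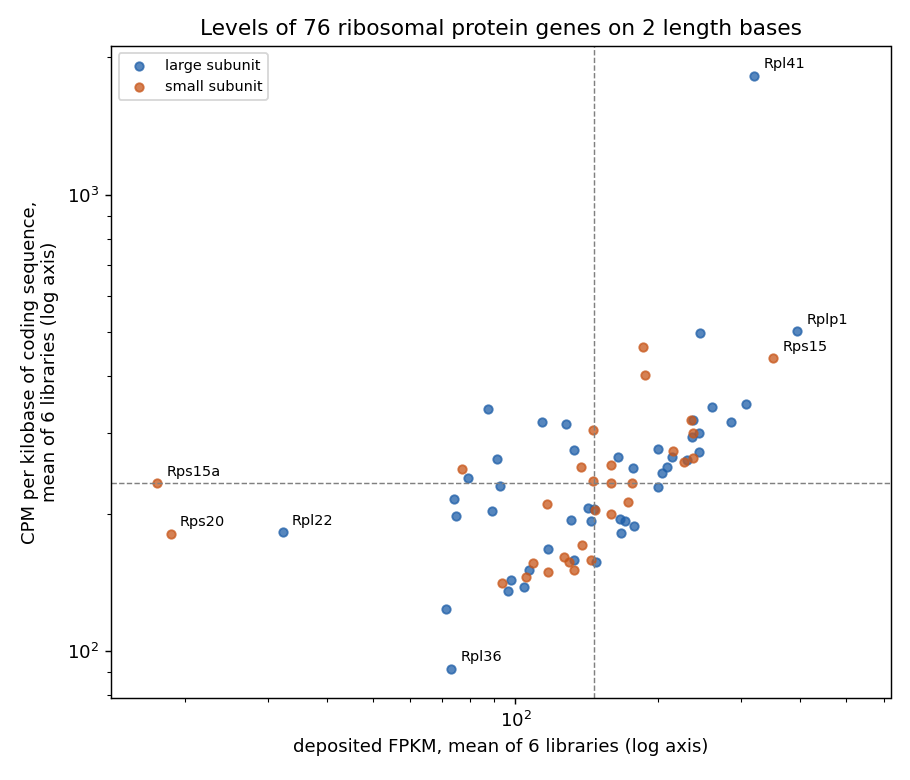
Mean level of the 76 standard ribosomal protein genes over the 6 libraries, as deposited FPKM (horizontal, log axis) and as CPM per kilobase of coding sequence (vertical, log axis); each point is a gene, blue for the large and orange for the small subunit, and dashed lines are the medians. Rps15a, Rps20 and Rpl22 stand far left at 17.5, 18.7 and 32.2 FPKM but near the middle of the vertical axis, and Rpl41 stands apart at the top.

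The paralogs whose symbols end in l were far below their standard partners. Rps27l had 7.75 FPKM beside 234 FPKM for Rps27, and Rps4l, listed with a non-coding transcript, had 7.73 FPKM beside 173 FPKM for Rps4x. Rpl3l, which is known as the form of striated muscle, had 0.29 FPKM beside 286 FPKM for Rpl3. Rpl32l (0.13 FPKM) and Rpl39l (0.047 FPKM), the latter known from male germ cells, were also close to 0. Rpl3l, Rpl32l and Rpl39l were removed by the filter on low counts, which left 78 members for testing.

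Many ribosomal protein genes have near-identical processed copies in the genome, and reads of 50 bases cannot always tell them apart. In 54 of the 81 genes the expected count was whole (within 0.005) in all 6 libraries, and in the other 27 reads had been shared with other entries, among them Rpl14, Rpl37, Rpl39, Rps15a and Rps19. Of 7 members, 8 copies with the member's symbol and the ending ps or rt were listed. In 7 of these 8 pairs the summed CPM varied less than either entry, by a small margin in most. Rpl14-ps1 had a coefficient of variation over the 6 libraries of 12.9% and Rpl14 of 4.0%, while their summed CPM varied by 1.56%. Rpl37rt varied by 10.5% and Rpl37 by 6.58%, while their sum varied by 2.54%. For Rpl31 the sum with Rpl31-ps12 varied by 6.10%, close to the 6.28% of Rpl31 alone. Values of the 27 genes are therefore uncertain by the way reads were shared out. A further limit is overlap: 15 members share over 10% of their exon bases with another gene. Rpl35 shares 66.2% with Arpc5l and Wdr38 on the other strand, and Rpl23a shares 59.7% with Tlcd1. The sources used here do not say if reads were counted by strand.

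Isolation was compared with control gene by gene, to ask whether the mRNAs of the ribosome changed after isolation. No ribosomal protein gene passed the test: 0 of the 78 tested members passed an adjusted p of 0.05 in edgeR's quasi-likelihood test with Benjamini-Hochberg adjustment over all 15169 genes tested, where 0.0% of all genes passed. DESeq2 and limma-voom also called 0 members. At an unadjusted p under 0.05 edgeR counted 2 members (2.56%), against 3.53% of all genes tested, DESeq2 counted 1 and limma-voom 2. Of the members counted by edgeR, 0 were higher and 2 were lower in isolated libraries, where 1.52% and 2.0% of all genes were. The log2 difference (isolated minus control) was above 0 in 46 members and below 0 in 32, beside 7462 and 7707 of all genes tested. Its median was 0.0094 over all members, 0.016 over 46 large subunit genes and 0.0036 over 32 small subunit genes, beside -0.0018 over all genes tested. Without control 2 and isolated 3 the median over all members was 0.011. In 72 of the 78 members the difference was smaller than 0.1 in size, a count that was not made over all genes. The lower and upper quartiles were -0.020 and 0.039 in the members, and -0.075 and 0.067 over all genes tested. The 95% interval lay within 0.25 on either side of 0 in 71 of 78 members (91.0%), against 35.6% of all genes. The median half-width of the interval was 0.13 for the members and 0.23 for all genes. The members are abundant, and their counting error, the spread from read numbers alone, had a median of 0.034 against 0.073 in all genes. Their narrow intervals thus do not show that they respond less to isolation than other genes.

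**Figure D2:**
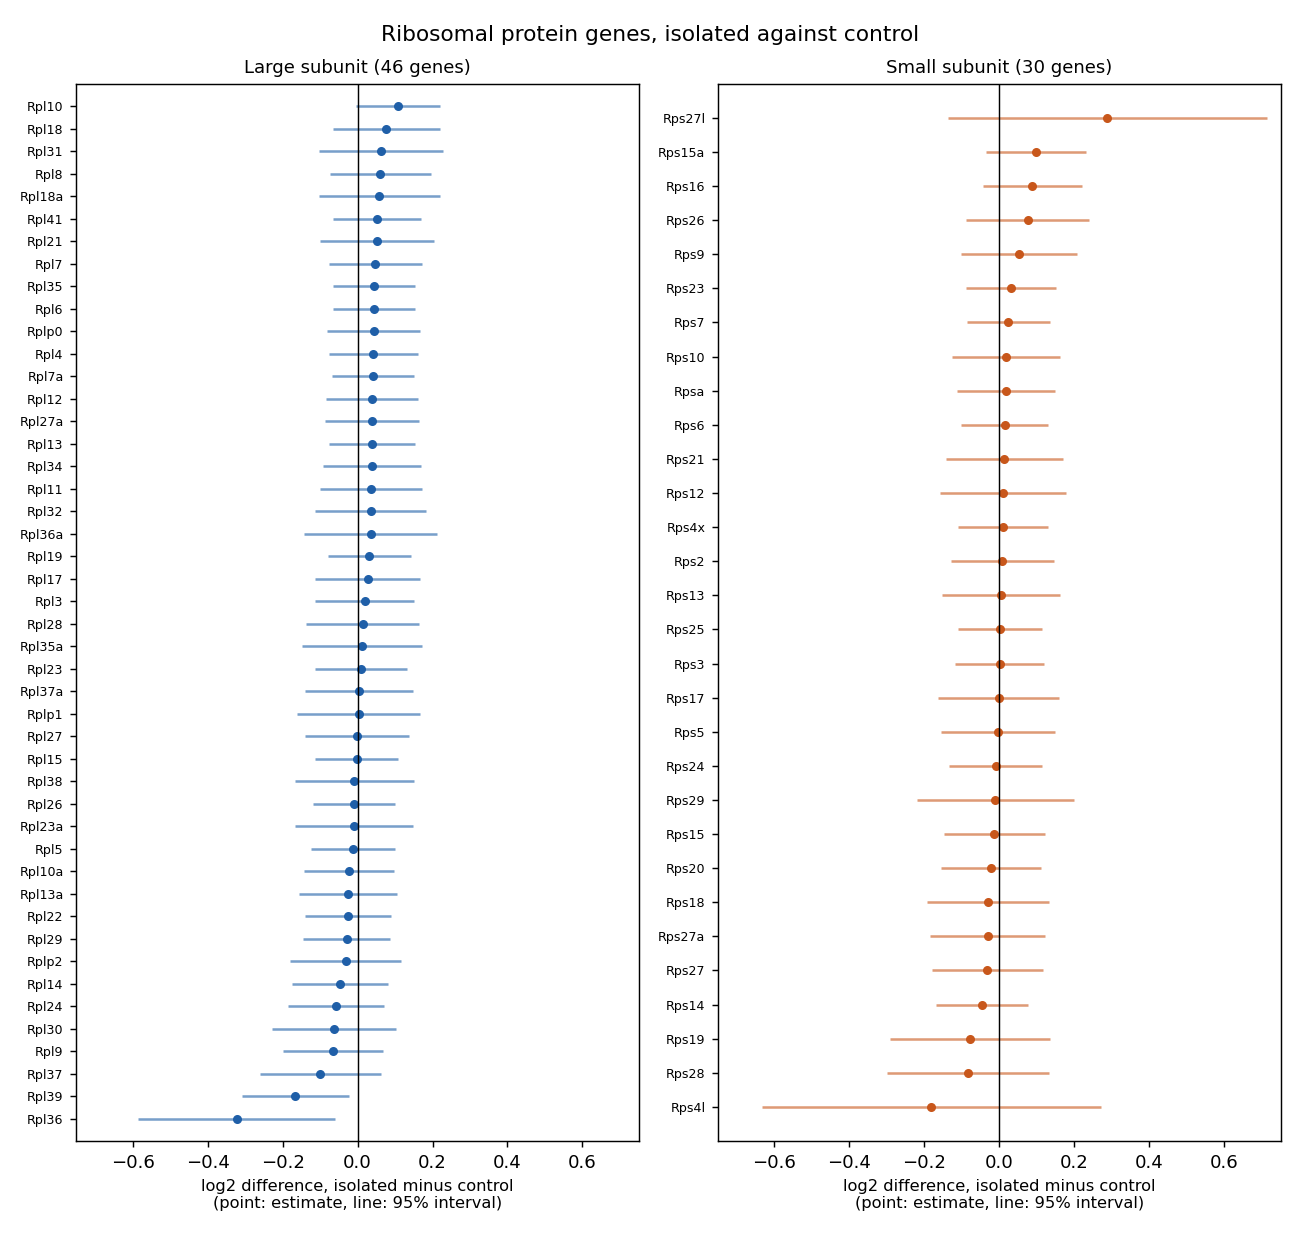
Log2 difference between isolated and control libraries for 76 of the 78 tested ribosomal protein genes, large subunit left and small subunit right; points are edgeR estimates and lines their 95% intervals. Of those drawn, only the intervals of Rpl36 and Rpl39 leave out 0, neither passed the adjusted test, and Rps27l and Rps4l have wide intervals.

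In 5 members (6.41%) the 3 control and the 3 isolated values did not overlap, against 8.85% of all genes tested. Of these, 3 were higher in the isolated libraries (background 4.12% of genes) and 2 were lower (background 4.73%). Their shares lie near or below the background, so the members described next, 4 of the 5, are among the extremes of a group with small differences. Summed markers of 3 other cell types also separated the groups, all lower after isolation, but no single marker passed the adjusted test. Taken singly, 2 of 8 astrocyte, 4 of 9 microglial and 2 of 9 vascular markers did not overlap between groups, against 8.85% of all genes tested. Astrocyte markers summed to 4560 to 4806 CPM in control libraries and 4249 to 4407 CPM after isolation. Microglial markers summed to 364 to 393 and 342 to 363 CPM, and vascular markers to 252 to 287 and 229 to 249 CPM. Their part in the differences of single members was not tested.

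Rpl36, a protein of the large subunit (chr17:56610094-56614246, GRCm38.p6), had 33.1, 33.2 and 29.8 CPM in control 1 to 3 and 21.98, 29.6 and 25.2 CPM in isolated 1 to 3. The isolated libraries all lay below the control ones, though control 3 and isolated 2 nearly touched. The means were 32.0 ± 1.92 and 25.6 ± 3.81 CPM (SD, n = 3 each). The log2 difference was -0.32 (SE 0.11, 95% interval -0.58 to -0.06), with an unadjusted p of 0.0222 and an adjusted p of 0.999 by edgeR. Without isolated 1, which was the lowest, it was -0.22. Leaving out control 2 with isolated 3 gave -0.29 (unadjusted p 0.0735 by edgeR). With 1 library left out, the unadjusted p by edgeR ran from 0.0037 (without isolated 2) to 0.0666 (without isolated 1).

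Rpl39, a small protein that lines the exit tunnel (chrX:37082518-37085222), had 31.0, 31.5 and 33.2 CPM in control 1 to 3 and 27.9, 28.8 and 28.6 CPM in isolated 1 to 3. The isolated values all lay below the control values. The log2 difference was -0.17 (SE 0.06), with an unadjusted p of 0.0287 and an adjusted p of 0.999 by edgeR. Without control 2 and isolated 3 it was -0.18 (unadjusted p 0.065 by edgeR). With 1 library left out, the unadjusted p by edgeR ran from 0.0284 (without control 1) to 0.0831 (without control 3). The unadjusted p was 0.0965 by DESeq2, 0.0725 by edgeR with a replicate block and 0.0251 by limma-voom. On FPKM, limma on log2(FPKM + 1) with a filter gave a difference of -0.16 (unadjusted p 0.0092). None of these alternatives passed the adjusted test. Rpl39 is among the genes with shared reads.

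Rpl10, which sits near the peptidyl transferase centre and joins the large subunit late in its assembly (chrX:74270816-74273135), had 148, 155 and 151 CPM in control 1 to 3 and 161, 166 and 164 CPM in isolated 1 to 3. All isolated libraries lay above all control libraries. The log2 difference was 0.11 (SE 0.05), with an unadjusted p of 0.055 by edgeR and an adjusted p of 0.999. Without control 2 and isolated 3 it was 0.12. On FPKM, limma on log2(FPKM + 1) with a filter gave 0.11 (unadjusted p 0.0443), while the unadjusted p by DESeq2 on counts was 0.0874. Neither passed the adjusted test. Rpl6 had 220, 218 and 223 CPM in control 1 to 3 and 227, 228 and 225 CPM in isolated 1 to 3, a log2 difference of 0.04 (SE 0.05).

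**Figure D3:**
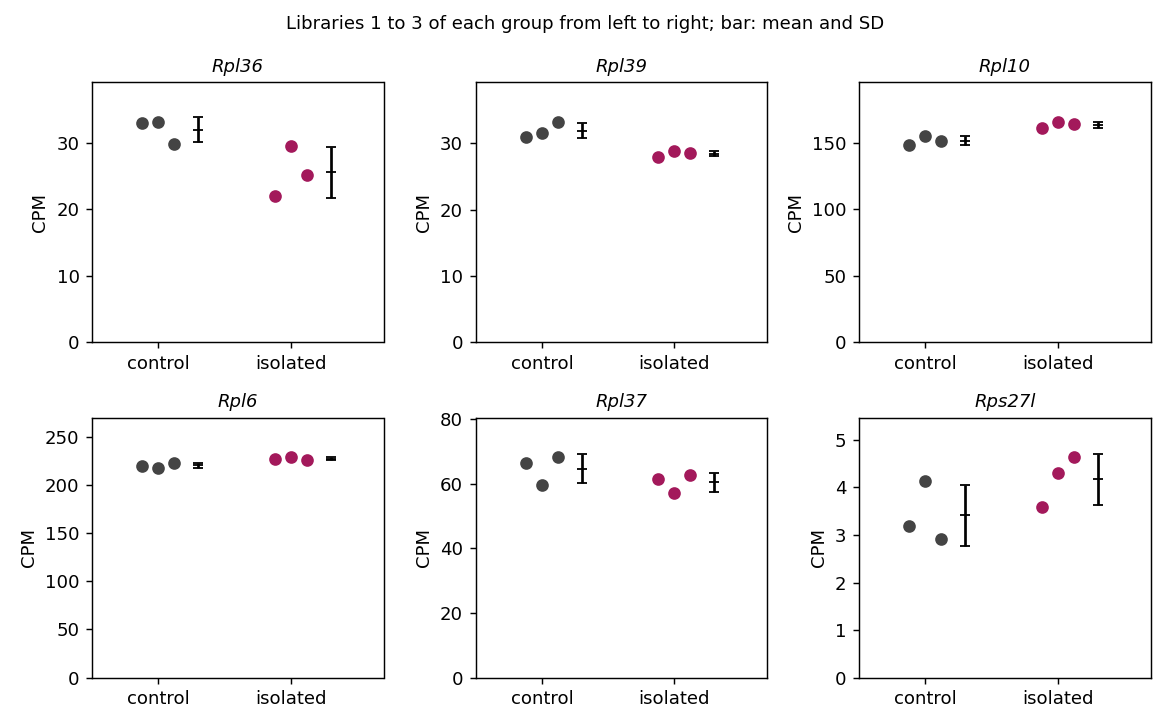
CPM of Rpl36, Rpl39, Rpl10, Rpl6, Rpl37 and Rps27l in each library, control in grey and isolated in purple, with mean and SD beside the points; the vertical axes start at 0. The groups do not overlap in the first 4 genes and overlap in Rpl37 and Rps27l, and the gaps between groups in Rpl10 and Rpl6 are small beside their levels.

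Other members with the smallest p in either direction overlapped between groups. Rps27l, a paralog of Rps27 known as a target of p53, had 3.19, 4.14 and 2.91 CPM in control 1 to 3 and 3.58, 4.30 and 4.63 CPM in isolated 1 to 3, a log2 difference of 0.29 with an interval from -0.14 to 0.71. Without control 2 it was 0.45 (unadjusted p 0.0419 by edgeR), and without control 3 it was 0.19. Leaving out control 2 with isolated 3 gave 0.37. The differences of Rps15a, Rps16 and Rpl18 were 0.10, 0.09 and 0.08, with standard errors of 0.06 each. Single libraries moved them by over 1.5-fold: Rps15a fell to 0.06 without isolated 2, Rps16 to 0.05 without control 3 or without isolated 3, and Rpl18 to 0.02 without isolated 3. Without control 2 and isolated 3 they were 0.11, 0.07 and 0.03. Below 0 stood Rpl37 at -0.10, Rpl9 at -0.07 and Rpl24 at -0.06. Rpl37 stood at -0.15 without control 2 (unadjusted p 0.0451 by edgeR) and at -0.06 without control 3 or without isolated 2. Rpl37, like Rps15a, is among the genes with shared reads. Its CPM summed with Rpl37rt was 88.8, 83.6 and 87.1 in control 1 to 3 and 84.0, 83.4 and 85.3 in isolated 1 to 3. Rpl9 stood at -0.02 without control 2, and Rpl24 at -0.02 without isolated 1 and at -0.09 without isolated 3. Without control 2 and isolated 3 they were -0.18 (unadjusted p 0.0323 by edgeR), -0.02 and -0.08. Rps4l, with 5.39 to 9.09 CPM, stood at -0.18 with an interval from -0.63 to 0.27, at -0.02 without control 2, at -0.37 without control 3 (unadjusted p 0.0259 by edgeR), at -0.12 without isolated 3, and at 0.042 without control 2 and isolated 3. With all 6 libraries none of these 8 members had an unadjusted p under 0.1 by edgeR, and no adjusted p passed in any of the alternatives. For these members, p values with libraries left out are printed only where they lay under 0.05.

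Grouped by place in the ribosome, no group held a member that passed the adjusted test. Of the stalk and its base, Rplp0 had a log2 difference of 0.04, Rplp1 of 0.0028, Rplp2 of -0.03 and Rpl12 of 0.04, and their summed level was 498 ± 6.01 CPM in control libraries and 505 ± 23.3 CPM after isolation (SD, n = 3 each). Rpl5 and Rpl11, which with 5S rRNA form the particle that binds Mdm2 and stabilizes p53 when ribosome assembly fails, summed to 264 ± 8.01 CPM in control libraries and 265 ± 2.55 CPM after isolation. The 8 genes of the exit tunnel and its rim had a median of 0.03, 5 above and 3 below 0. Rps2, Rps3 and Rps9 of the mRNA entry lay between 0.00076 and 0.05. The 9 genes mutated in the inherited red cell disorder Diamond-Blackfan anaemia, such as Rps19, had a median of 0.012, with 5 above and 4 below 0. Rps6, whose phosphorylation is widely used as a readout of mTOR activity, had 188 ± 5.49 CPM in control libraries and 190 ± 3.02 CPM after isolation. Rpsa, also known as a laminin receptor, had 269 ± 8.35 and 272 ± 11.4 CPM, and Rps27a, made as a fusion with ubiquitin, had 66.6 ± 3.80 and 65.2 ± 3.44 CPM. The 13 tested genes with a TOP pattern at an annotated start had a median difference of 0.012, and the 44 others with a start in the table had 0.013.

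The members as a whole took up a like share of reads in both groups. They held 0.911%, 0.935% and 0.883% of expected counts in control 1 to 3 and 0.887%, 0.925% and 0.948% in isolated 1 to 3. The highest and the lowest library thus differed by 1.07-fold, and the groups overlapped. The means were 0.910% ± 0.026 and 0.920% ± 0.031 (SD, n = 3 each). Summed FPKM ran from 11702 in control 3 to 12662 in isolated 3. The ratio of large to small subunit counts was 1.75, 1.74 and 1.79 in control 1 to 3 and 1.78, 1.78 and 1.75 in isolated 1 to 3, a range of 1.03-fold over the 6 libraries.

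The members moved together from library to library, across the groups. In isolated 3, 59 of the 78 members lay above their own mean over the 6 libraries, in control 2 it was 51 and in isolated 2 it was 48. In isolated 1 it was 15 and in control 3 it was 18. Of the members, 30 had their highest level in isolated 3, and 33 had their lowest in control 3, counts that were not made over all genes tested. The median deviation from the gene's own mean was 0.0042, 0.029 and -0.05 on the log2 scale in control 1 to 3, and -0.03, 0.0097 and 0.04 in isolated 1 to 3. The 39 shorter members deviated more than the 39 longer ones in the outer libraries, with medians of -0.06 and -0.03 in control 3 and of 0.06 and 0.03 in isolated 3. Over the 15169 genes tested the median deviation stayed between -0.0016 and 0.0041. The 2 libraries with high striatal markers, control 2 and isolated 3, had the largest shares of ribosomal protein counts. Their pan-neuronal markers (Rbfox3, Snap25 and 4 others) were the lowest, at 6900 and 7072 CPM, against 7670 to 8282 CPM in the other libraries. Myelin markers summed to 7047 CPM in isolated 3 and 2960 CPM in control 3, the extremes of all 6 libraries. They summed to 4930 and 3519 CPM in control 1 and 2, and to 3843 and 4147 CPM in isolated 1 and 2. None of these markers was at 0 in all libraries, and their part in the shifts was not tested. In tissue RNA of this kind, fewer cells of a type and less RNA per cell cannot be told apart. Without control 2 and isolated 3, the members' share of counts was 0.95% higher in the isolated libraries in relative terms, against 1.11% with them.

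**Figure D4:**
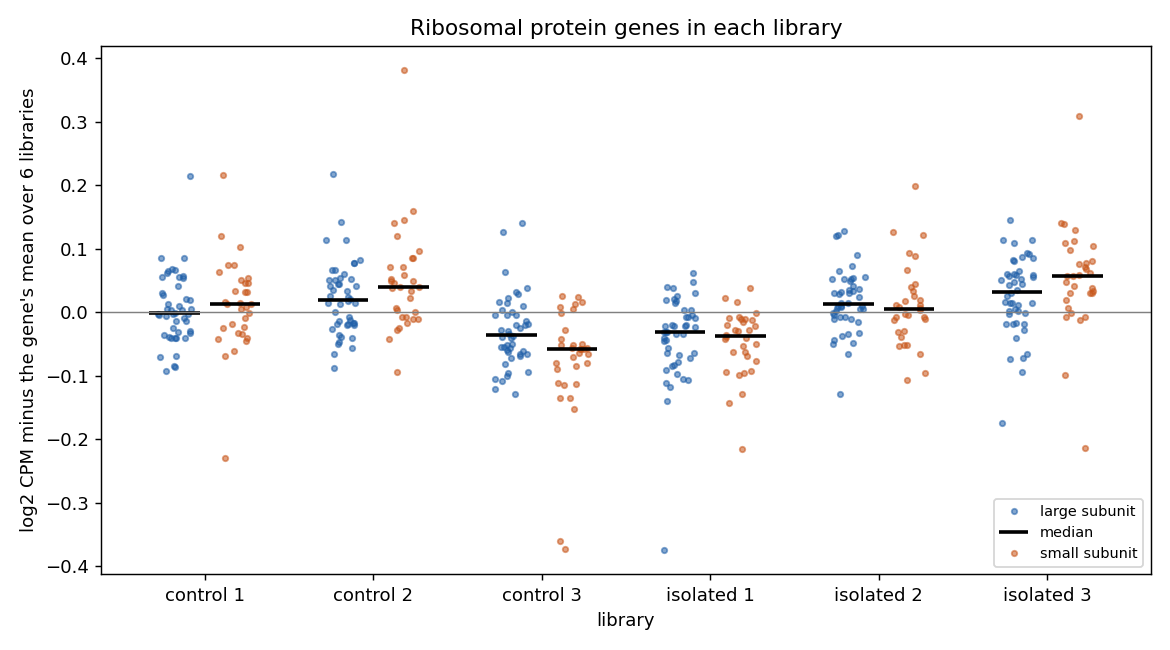
Deviation of each of the 78 tested members from its own mean over the 6 libraries (log2 CPM, vertical) in each library, large subunit blue and small subunit orange, with medians as black bars. Both subunits sit below 0 in control 3 and isolated 1 and above 0 in control 2 and isolated 3.

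Single members varied little between libraries. The SD of log2 CPM over the 6 libraries had a median of 0.064 over the members and 0.13 over all genes tested, and 15.7% of all genes had an SD below the members' median. Since abundant genes have a small counting error, the SD was also divided by that error. This ratio had a median of 1.78 in the members and 1.55 in all genes. The counting error itself had a median of 0.034 in the members and 0.073 in all genes. An equal spread beyond counting thus gives a higher ratio in the members, and the ratio does not rank them against other genes. In 47 of the 78 members the SD was under 2 times the counting error. The steadiest were Rpl15, Rpl5 and Rpl26, each with an SD of 0.025, and Rpl6 with 0.027. The widest were Rps4l (0.27), Rps27l (0.25), Rpl36 (0.23) and Rps19 (0.13). Rps4l and Rps27l have few counts, whereas Rpl36 stood at 3.71 times its counting error, the highest ratio of the members. Rps25 was the lowest, at 0.84 times.

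**Figure D5:**
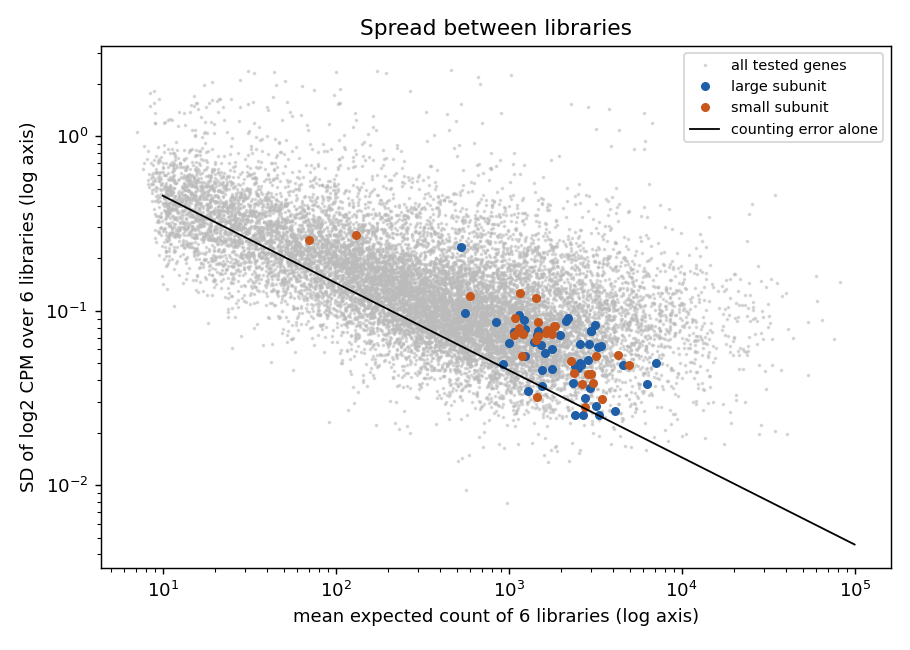
SD of log2 CPM over the 6 libraries against the mean expected count (both log axes) for all tested genes in grey and the 78 members in colour; the line is the SD that counting error alone would give. The members lie mostly a little above the line, with Rpl36, Rps27l and Rps4l highest.

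For the further lists of genes, edgeR called 0 of each list after adjustment. Of cytosolic ribosome components and their paralogs outside the symbol rule, 7 genes were tested, and their differences had a median of 0.03, with 4 above and 3 below 0. Among them Rack1, a signalling scaffold on the small subunit, stood at 0.06 (SE 0.05) and Rps3a1 at 0.05 (SE 0.05). A list of 18 translation factors and other genes with TOP mRNAs had a median of 0.018, with 10 above and 8 below 0. Those with the smallest p were Hnrnpa1 (0.11), an RNA-binding protein and no translation factor, and Eif3f (0.08). The 33 genes of ribosome biogenesis tested had a median of 0.011, with 20 above and 13 below 0, led by Nhp2 (0.14) and Nop10 (-0.12), both parts of the box H/ACA particles that modify rRNA. The 31 genes of the mTOR pathway and of TOP regulation tested had a median of 0.018, with 17 above and 14 below 0. Rps6ka3, a kinase of the ERK branch that phosphorylates Rps6, stood at -0.24 (SE 0.07, unadjusted p 0.0116 and adjusted p 0.999 by edgeR), with the isolated values all below the control values, and Larp4 stood at -0.12. The 76 mitochondrial ribosomal protein genes had a median of 0.019, with 45 above and 31 below 0, and Mrps31 (0.23) and Mrps11 (-0.22) had the smallest p. At an unadjusted p under 0.05, edgeR counted 1 of the 31 genes of the mTOR list, 1 of the 76 of the mitochondrial list and 0 of the other 3 lists. Over all genes tested the share was 3.53%. The groups did not overlap in 9.68% of the mTOR list, against 8.85% of all genes tested.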

How the data were processed

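The authors deposited 1 table per library with expected counts (estimated reads per gene, not normalized) and FPKM values, per the file headers. The build mm10, HISAT, Bowtie2 and RSEM are named per the submitters' processing notes, with no version or setting. Total RNA was read as 50 bases on a BGISEQ-500, per the labels' protocols. Expected counts were rounded and tested with edgeR 4.0.16 (R 4.3.3): filterByExpr (minimum count 10, minimum total 15) kept 15169 genes and removed 4774, libraries were scaled with TMM (factors 0.991 to 1.012), and p-values of the quasi-likelihood test were adjusted by Benjamini-Hochberg over all genes, with no covariates. CPM values are TMM-scaled; log2 CPM used a prior count of 2. Intervals are 95%. The test was checked on simulated data. DESeq2 1.42.0 and limma 3.58.1 were alternatives. Rows without a symbol held at most 0.00095% of counts and were left out. A deposited table of all 6 libraries together was not used, its column codes matching no label. No library repeated another (chi-square of at least 2.90 per gene for each pair).

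Named with differences are the 6 members with the smallest p in each direction and those whose groups did not overlap, which were added after their values were seen. Named with levels are the 5 highest and 5 lowest by FPKM per subunit, the 4 most and 4 least variable, filtered members, paralog pairs and fixed role groups, and the 2 genes of each further list with the smallest p. Some genes that these rules select are not reported here. The members and lists were chosen with earlier results of these data known. Gene coordinates are from RefSeq (GRCm38.p6), coding lengths and overlaps from GENCODE vM21.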

Additional observations from a re-analysis of the deposited data

How the results depend on the processing

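Every alternative called 0 members, and every one but DESeq2 called 0 of all genes; DESeq2 called 1 gene, Fkbp5, which is no ribosomal protein gene. The alternatives were DESeq2, DESeq2 size factors, limma-voom, limma on log2(FPKM + 1) with and without a filter and on log2(FPKM + 0.1) with it, no count filter, scaling without the ribosomal protein genes, removal of each library's trend with gene length, the striatal level as covariate, leaving out control 2 with isolated 3, and leaving out each library. The members' median log2 difference ran from -0.013 to 0.036 (large 0.0025 to 0.04, small -0.02 to 0.03) when 1 library was left out, and the relative difference of their summed level from -0.46% to 2.94%. Its sign turned without control 3, without isolated 3 and as a share of FPKM (-0.17%), all within the spread between libraries of 3.14%. Members at an unadjusted p under 0.05 numbered 0 to 3, with 0 without isolated 1 or isolated 3, and all genes 306 to 924. Of the 12 members named by their p, 11 kept their sign under all 18 alternatives; Rps4l turned to 0.042 without control 2 and isolated 3. The fold per coding kilobase between the highest and lowest gene (19.9 in place of 22.5), the summed level in CPM and the summed level without control 2 and isolated 3 were alternatives added after the data were seen. The fits without control 2 and isolated 3 and with the striatal level as covariate also rest on marker levels of these same data.

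The deviations of same-numbered libraries had correlations of 0.025, -0.27 and -0.49 over genes. Control 2 correlated most with isolated 3 (0.44), the libraries with high striatal markers. With such differences between libraries, these correlations cannot show whether equal numbers share a litter, day or batch. The labels name no such link, so the main test has no block. With a replicate block edgeR called 0 genes, 331 had an unadjusted p under 0.05 in place of 535, and 1 member in place of 2.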
